A study of Mus musculus with 12 samples.

Results

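The expression of 34 genes of peroxisome assembly and peroxisomal metabolism was followed in mouse embryonic fibroblasts, cells of connective tissue cultured from embryos, before and during reprogramming. The rule that lists them uses no measured value, although the set was chosen with earlier results of these data known. Each was represented by the probe set that carries its symbol alone in the platform table and has the highest mean over the 12 arrays. All 34 were found, among 22180 genes tested. The 13 peroxins among them are Pex2, Pex3, Pex5, Pex6, Pex7, Pex10, Pex11a, Pex11g, Pex13, Pex14, Pex16, Pex19 and Pex26, and the other 21 are enzymes, transporters and membrane proteins. Total RNA from wild-type (WT) and Gdap1-null (KO) cells was hybridised to 1-colour Affymetrix whole-transcript arrays, with 3 arrays in each of 4 groups. Each genotype was sampled on 2 days, before reprogramming (day 0) and at day 4 of it. All cells grew in DMEM with 10% serum. Reprogramming used OSKM, a set of transcription factors delivered overnight by transduction: Oct4 (encoded by Pou5f1), Sox2, Klf4 and Myc. One treatment text covers every array and names mock and OSKM transduction without saying which the day 0 cells had. The labels give no strain, embryo, allele design or age, and do not say whether arrays of a group came from separate cultures or animals. The p-values therefore measure the spread between these arrays, which may be technical.

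Peroxisomes are organelles bounded by a single membrane that import folded enzymes from the cytosol. PEX5 and PEX7 carry enzymes with a peroxisomal targeting signal to a docking complex that holds PEX13 and PEX14, and the RING proteins PEX2 and PEX10, with an ATPase that PEX26 anchors, return the receptor to the cytosol. PEX3, PEX16 and PEX19 insert membrane proteins, and PEX11 proteins elongate the organelle before it divides. Inside, very-long-chain and branched fatty acids are shortened by beta-oxidation, phytanic acid by alpha-oxidation, and the first steps of ether lipid synthesis take place, while catalase removes hydrogen peroxide. GDAP1, the protein missing in the KO cells, sits in the outer mitochondrial membrane and is also found on peroxisomes, where it takes part in fission.

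Values are the deposited log2 probe-set levels. The median gene's level ran, by array, from 5.22 to 5.32, and WT day 4 array 1 had the lowest mean correlation with its own group, 0.987. The Gdap1 probe set read 2.82 to 3.30 over all 12 arrays, under the 25th percentile of gene levels (3.75), and did not separate KO from WT at day 0, with a log2 difference of -0.08 ± 0.12 (SE, adjusted p = 0.831), or at day 4, with 0.16 ± 0.12 (SE, adjusted p = 0.395), so it does not check the genotype labels. Of the transduced factors, Klf4 was 2.94 higher on the log2 scale at day 4 in WT and 3.28 in KO, and Myc changed by -1.02 and -0.94. Pou5f1 changed by 0.10 (adjusted p = 0.516) and 0.38 (adjusted p = 0.00541), and Sox2 by 0.19 (adjusted p = 0.338) and -0.10 (adjusted p = 0.599). All 14 fibroblast markers measured were above that 25th percentile. None of 12 macrophage, 11 adipocyte and 8 endothelial markers lay under it either, so this level does not set fibroblasts apart. The log2 of the summed linear levels of the fibroblast markers was 14.93 to 14.94 at WT day 0, 14.66 to 14.88 at WT day 4, 14.90 to 14.94 at KO day 0 and 14.75 to 14.97 at KO day 4. A gene is said to have passed, risen or fallen where its adjusted p in limma was under 0.05, after Benjamini-Hochberg adjustment over all genes tested. None of the 34 peroxisome genes lay under the 25th percentile, and 28 lay above the median gene.

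At day 4 of reprogramming more peroxisome genes were higher than lower in both genotypes. In WT cells 16 of the 34 rose and 2 fell against day 0, where 11.1% of all genes tested rose and 11.7% fell. In KO cells 14 rose and 3 fell, against 13.8% and 16.9% of all genes. Among genes at or above the 25th percentile of level, where all 34 lie, 14.5% rose and 15.2% fell in WT. In KO 17.1% of those genes rose and 21.9% fell. The median log2 change of the 34 was 0.24 in WT and 0.10 in KO, where all genes had medians of -0.01 in both. Rises reached 1.76-fold for Pxmp4 in WT and 2.11-fold for Hacl1 in KO, the largest in each genotype. Of the peroxins 6 of 13 rose in WT and 7 in KO, and none fell in either. Of the other 21 genes 10 rose and 2 fell in WT, and 7 rose and 3 fell in KO.

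The rises in both genotypes comprised 13 genes: Pex7, Pex10, Pex11a, Pex13, Pex14, Pex26, Hsd17b4, Scp2, Ech1, Hacl1, Abcd2, Crot and Pxmp4. Of all genes 7.43% rose in both. Agps and Amacr fell in both, as did 8.11% of all genes. Acaa1a, Gnpat and Cat passed the threshold in WT alone, all 3 higher, where 3.57% of all genes did so. In KO alone Pex2 was higher (6.23% of all genes) and Crat was lower (8.70%). No difference between the genotypes' changes passed for any of these. Of the other 14 genes none passed in either day comparison, where 62.2% of all genes passed in neither. Across the 5 comparisons 12 of the 34 passed in none: Pex3, Pex5, Pex6, Pex11g, Pex16, Acox2, Acox3, Ehhadh, Acaa1b, Abcd3, Abcd4 and Pxmp2. The share of all genes that passed in none of the 5 was not counted, so this list is a description only. The WT count of 16 was 8 with each array centred on its median. It was 7 without WT day 0 array 1, 10 without its array 2 or the array 2 of WT day 4, and 9 without WT day 4 array 3. The rises over all genes also became fewer under these omissions, from 2469 to 1902, 1913, 2324 and 2034 in the same order. The KO count of 14 stayed between 13 and 14 when any 1 array was left out. Centring also moved the share of rises among all called genes from 48.7% to 38.2% in WT and from 45.0% to 33.9% in KO. Beside these day changes, 8 of 14 fibroblast markers fell and 2 rose in WT, and 7 fell and 2 rose in KO. Of the macrophage markers 1 rose and 2 fell in WT and 0 passed in KO, of the endothelial 1 rose and 2 fell in WT and 2 fell in KO, of the epithelial 3 rose and 1 fell in WT and 1 rose and 1 fell in KO, and of the hepatocyte 1 fell in KO. In bulk RNA fewer cells of a type and less RNA per cell cannot be told apart, and the part of such shifts in the peroxisome values was not tested.

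**Figure D1:**
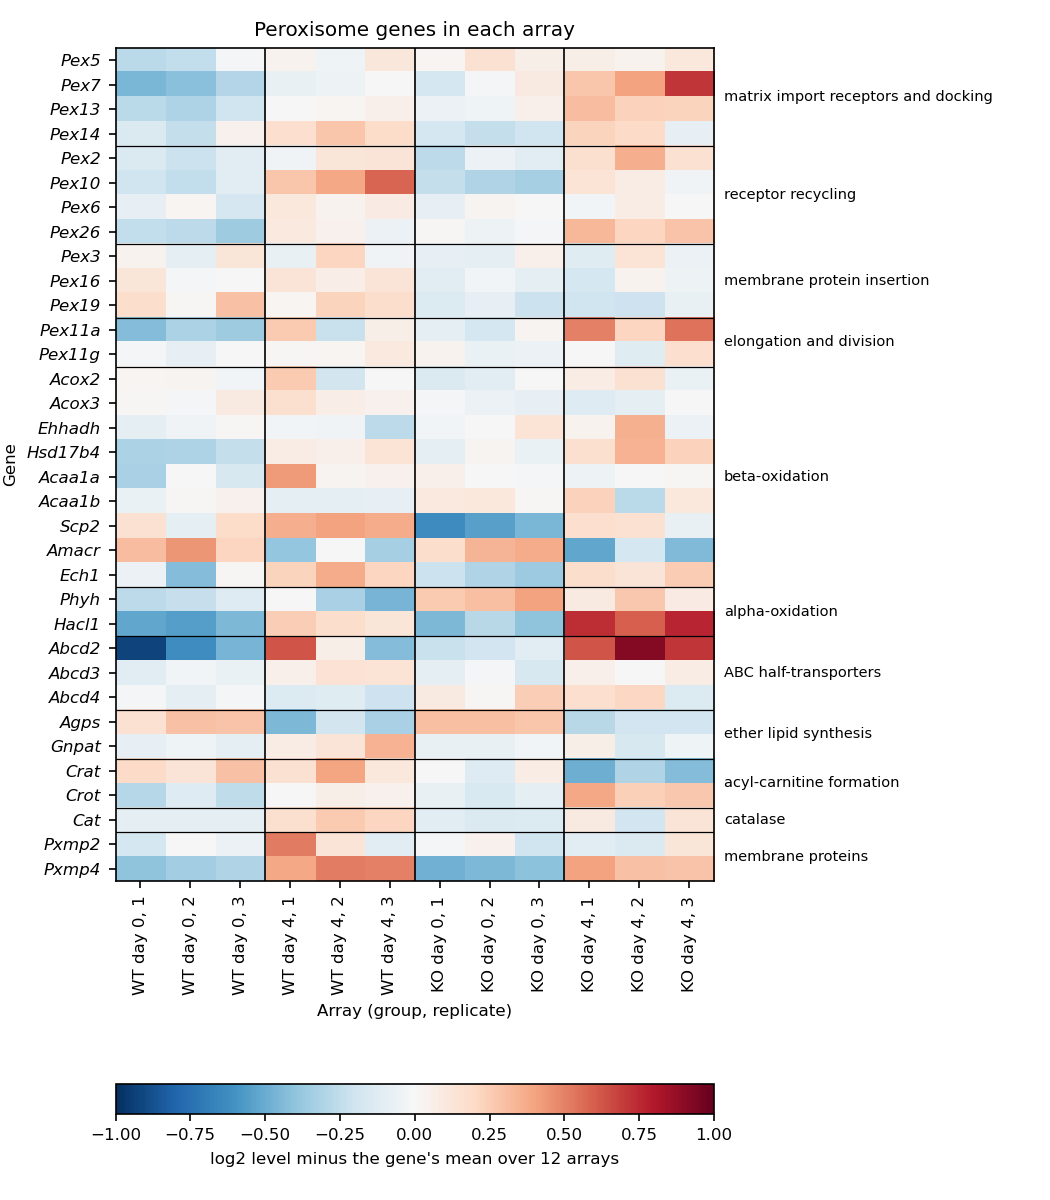
Log2 level of each of the 34 peroxisome genes (rows, grouped by role) on each of the 12 arrays (columns), as the deviation from that gene's mean; red is higher and blue lower. The mean deviation over the 34 genes was -0.14 to -0.07 on the WT day 0 arrays, -0.09 to -0.05 at KO day 0, 0.05 to 0.10 at WT day 4 and 0.10 to 0.11 at KO day 4.

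Across the 4 groups, the highest group mean was at WT day 4 for 16 genes, at KO day 4 for 11, at KO day 0 for 5 and at WT day 0 for 2. The lowest group mean was at WT day 0 for 15 genes, at KO day 0 for 10, at WT day 4 for 5 and at KO day 4 for 4. These counts take the group means as they stand, and neighbouring groups often overlap in their arrays, as the values of single genes show. The same counts were not made over all genes tested, so whether this order is particular to the peroxisome genes was not tested. The median gene's log2 level was itself higher on the day 4 arrays (5.28 to 5.32) than on the day 0 arrays (5.22 to 5.26).

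**Figure D2:**
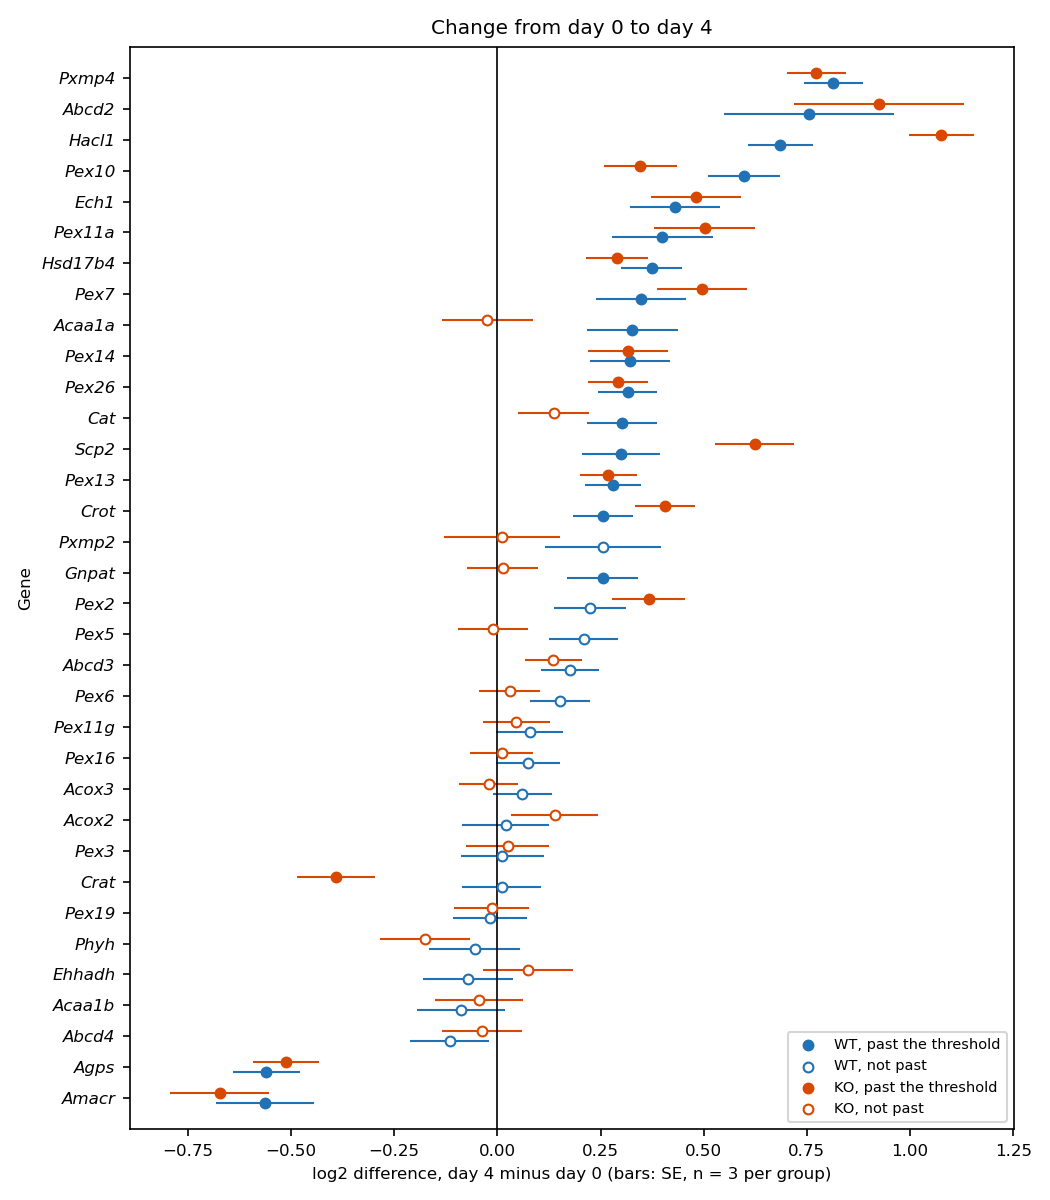
Change of each gene from day 0 to day 4 on the log2 scale, for WT (blue) and KO (orange), with SE bars (n = 3 arrays per group); filled points passed the adjusted p threshold of 0.05. Pxmp4 and Abcd2 had the highest WT changes, 0.81 and 0.75, and Hacl1 the highest KO change, 1.08, while Amacr and Agps lay at the negative end in both genotypes.

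The promoters of 4 genes whose values carry the results are shown here, because they are the upstream sequences of the genes with the clearest rises (Hacl1 and Pxmp4), of a gene that fell (Agps) and of the gene that differed most by p between genotypes at day 0 (Scp2). The sequences are RefSeq promoters on GRCm38.p6, 250 bases before to 50 after an annotated start, 5′ to 3′ on the gene's strand. The Scp2 window lies inside the span that RefSeq gives the gene, at an internal start and not at the gene's outer 5′ end. Capitals mark CCAAT or its reverse complement ATTGG, and GGGCGG or its reverse complement CCGCCC.
Hacl1 (chr14:31640916-31641215, minus strand): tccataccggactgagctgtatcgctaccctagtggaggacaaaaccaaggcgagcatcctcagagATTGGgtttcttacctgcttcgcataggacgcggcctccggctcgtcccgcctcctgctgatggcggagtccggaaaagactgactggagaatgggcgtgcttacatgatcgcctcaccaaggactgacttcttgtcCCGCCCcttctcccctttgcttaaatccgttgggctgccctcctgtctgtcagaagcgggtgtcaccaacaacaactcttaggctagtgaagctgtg
Pxmp4 (chr2:154603624-154603923, minus strand): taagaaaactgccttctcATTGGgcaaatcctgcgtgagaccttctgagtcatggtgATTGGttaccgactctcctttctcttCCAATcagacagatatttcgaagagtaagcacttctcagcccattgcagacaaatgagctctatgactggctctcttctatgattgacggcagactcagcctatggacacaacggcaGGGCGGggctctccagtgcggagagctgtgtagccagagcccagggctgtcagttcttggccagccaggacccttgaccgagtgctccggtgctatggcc
Agps (chr2:75831927-75832226, plus strand): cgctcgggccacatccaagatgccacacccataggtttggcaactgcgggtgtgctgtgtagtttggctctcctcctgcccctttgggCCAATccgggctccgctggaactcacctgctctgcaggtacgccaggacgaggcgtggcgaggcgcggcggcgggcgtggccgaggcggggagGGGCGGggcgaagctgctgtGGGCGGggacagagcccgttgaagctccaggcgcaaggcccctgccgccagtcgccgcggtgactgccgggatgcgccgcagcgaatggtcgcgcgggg
Scp2 (chr4:108118498-108118797, minus strand): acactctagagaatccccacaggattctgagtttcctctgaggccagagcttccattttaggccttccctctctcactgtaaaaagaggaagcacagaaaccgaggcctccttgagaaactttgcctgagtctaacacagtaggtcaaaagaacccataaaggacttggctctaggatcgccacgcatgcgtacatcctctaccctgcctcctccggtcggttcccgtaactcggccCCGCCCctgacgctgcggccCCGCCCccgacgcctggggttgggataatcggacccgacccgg
Pxmp4 holds 3 CCAAT boxes and 1 GGGCGG box, Hacl1 holds 1 of each, Agps 1 and 2, and Scp2 0 and 2. The promoters of Hacl1 and Pxmp4, which rose, and of Agps, which fell, each held both motifs.

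Promoters were found for 26 of the 34 genes, 31 promoters in all, and motifs were searched on both strands. GGGCGG, the core of a GC box, was in 21 of 31 (67.7%), against 35.7% of all 32851 RefSeq promoters of the same length; the median GC content was 57.3% against 52.7%. CCAAT was in 13 of 31 (41.9%), against 37.4%. The 12 genes with it were Acaa1a, Acaa1b, Acox2, Agps, Cat, Crot, Ehhadh, Hacl1, Pex5, Pex7, Pex16 and Pxmp4. A tandem repeat of AGGTCA with 1 base between the copies, the DR1 element to which PPAR-RXR pairs bind, was in 0 of 31 and in 0.0396% of all promoters. A single AGGTCA, which the repeat contains, was in 4 of 31 (12.9%; Cat, Pex11g, Phyh and Scp2), against 16.3%. CACGTG, the E-box that MYC can bind, was in the promoter of Gnpat alone among the 31 (3.23%), against 7.15%. ATGCAAAT, the octamer of POU factors such as OCT4, was in 0 of 31, against 1.74%. A match is a description of the letters, not evidence of binding, and the DR1 search was exact.

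Among the receptors and docking proteins of matrix import, Pex7, Pex13 and Pex14 rose in both genotypes and Pex5 passed in neither. PEX7 is the receptor for enzymes with the N-terminal targeting signal, among them AGPS, PHYH and thiolase. Log2 levels of Pex7 were 4.73, 4.77 and 4.90 on the WT day 0 arrays, 5.11, 5.14 and 5.19 at WT day 4, 5.01, 5.17 and 5.28 at KO day 0 and 5.46, 5.59 and 5.90 at KO day 4. Day 4 lay above day 0 on every array in each genotype, and the KO arrays at day 4 lay above all WT arrays. The log2 change was 0.35 ± 0.11 (SE, adjusted p = 0.0363) in WT and 0.50 ± 0.11 (SE, adjusted p = 0.00382) in KO. The WT call was lost when any 1 of these was left out: WT day 0 arrays 1 or 2, WT day 4 arrays 1, 2 or 3 or KO day 0 array 2 (adjusted p up to 0.122, and 0.0118 to 0.122 over all alternatives, which number 20). KO exceeded WT by 0.36 ± 0.11 (SE, adjusted p = 0.0883) at day 0 and by 0.50 ± 0.11 (SE, adjusted p = 0.00648) at day 4. The first of these passed without KO day 4 array 3 (adjusted p = 0.0361, and 0.0214 to 0.299 over all alternatives).

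PEX13 and PEX14 form the membrane docking site for loaded receptors. Pex13 had log2 levels of 6.85, 6.81 and 6.92 on the WT day 0 arrays, 7.11, 7.13 and 7.17 at WT day 4, 7.06, 7.08 and 7.17 at KO day 0 and 7.43, 7.35 and 7.34 at KO day 4. No array overlapped between days in either genotype, and at day 4 none overlapped between genotypes. Its log2 change was 0.28 ± 0.07 (SE, adjusted p = 0.00973) in WT and 0.27 ± 0.07 (SE, adjusted p = 0.00958) in KO. For Pex13, KO minus WT was 0.24 ± 0.07 (SE, adjusted p = 0.0609) at day 0 and 0.23 ± 0.07 (SE, adjusted p = 0.0304) at day 4. That of day 0 passed without WT day 4 array 1 (adjusted p = 0.0458, and 0.0144 to 0.232 over all alternatives). That of day 4 failed on omitting WT day 4 arrays 1, 2 or 3 or KO day 4 arrays 1 or 3 (adjusted p up to 0.0936, and 0.00724 to 0.126 over all alternatives). Pex14 changed by 0.32 ± 0.10 (SE, adjusted p = 0.0296) in WT, a call that failed on omitting WT day 0 arrays 1 or 2 or WT day 4 arrays 2 or 3 (adjusted p up to 0.126, and 0.0147 to 0.126 over all alternatives). In KO it changed by 0.32 ± 0.10 (SE, adjusted p = 0.0247), a call that failed on omitting KO day 0 arrays 1, 2 or 3 or KO day 4 arrays 1 or 2 (up to 0.0959, and 0.006 to 0.0959 over all alternatives). Pex5, the receptor for the C-terminal signal that most matrix enzymes carry, changed by 0.21 ± 0.08 (SE, adjusted p = 0.0999) in WT and -0.01 ± 0.08 (SE, adjusted p = 0.949) in KO, and it passed in WT without WT day 0 array 3 (log2 change 0.29, adjusted p = 0.0296, and 0.0296 to 0.305 over all alternatives). Its arrays ran from 6.80 to 7.22 in log2 level over all groups.

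Of the genes for receptor recycling, Pex10 and Pex26 rose in both genotypes, Pex2 passed in KO alone and Pex6 in neither. PEX10 and PEX2 are RING ubiquitin ligases that mark the receptor for export. Log2 levels of Pex10 were 6.65, 6.60 and 6.74 on the WT day 0 arrays, 7.12, 7.23 and 7.42 at WT day 4, 6.61, 6.54 and 6.51 at KO day 0 and 6.98, 6.92 and 6.81 at KO day 4. Every day 4 array lay above every day 0 array of its genotype, and at day 4 the WT arrays lay above the KO arrays. Pex10 changed by 0.60 ± 0.09 (SE, adjusted p = 0.00029) in WT (1.51-fold) and by 0.35 ± 0.09 (SE, adjusted p = 0.00899) in KO. KO minus WT was -0.11 ± 0.09 (SE, adjusted p = 0.627) at day 0 and -0.36 ± 0.09 (SE, adjusted p = 0.0127) at day 4, the latter not past the threshold without WT day 4 array 3 (adjusted p up to 0.0574, and 0.0037 to 0.0791 over all alternatives). Pex2 changed by 0.22 ± 0.09 (SE, adjusted p = 0.0891) in WT, which passed without WT day 4 array 1, and by 0.37 ± 0.09 (SE, adjusted p = 0.00625) in KO.

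PEX26 anchors the export ATPase, of which PEX6 is a subunit and which pulls the receptor out of the membrane. Pex26 had log2 levels of 6.19, 6.18 and 6.08 on the WT day 0 arrays, 6.53, 6.48 and 6.38 at WT day 4, 6.45, 6.39 and 6.43 at KO day 0 and 6.77, 6.65 and 6.73 at KO day 4. The arrays overlapped neither between days within a genotype nor between genotypes within a day. The group means ran from WT day 0 through KO day 0 and WT day 4, which overlap, to KO day 4. Pex26 was, with Scp2, the gene that passed in 4 comparisons. It changed by 0.32 ± 0.07 (SE, adjusted p = 0.0064) in WT and 0.29 ± 0.07 (SE, adjusted p = 0.00776) in KO. For Pex26, KO minus WT was 0.27 ± 0.07 (SE, adjusted p = 0.0458) at day 0 and 0.25 ± 0.07 (SE, adjusted p = 0.0278) at day 4. The day 0 genotype call failed on omitting WT day 0 arrays 1, 2 or 3, WT day 4 array 2, KO day 0 arrays 1, 2 or 3 or KO day 4 arrays 1 or 3 (adjusted p up to 0.181, and 0.00892 to 0.181 over all alternatives), and that of day 4 without WT day 4 arrays 2 or 3 or KO day 4 arrays 1 or 3 (up to 0.108, and 0.00893 to 0.126 over all alternatives). Pex6 changed by 0.15 ± 0.07 (SE, adjusted p = 0.177) in WT and 0.03 ± 0.07 (SE, adjusted p = 0.804) in KO.

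The genes for membrane protein insertion passed in neither day comparison. Pex3, the membrane anchor for the chaperone PEX19, changed by 0.01 ± 0.10 (SE, adjusted p = 0.957) in WT and 0.02 ± 0.10 (SE, adjusted p = 0.889) in KO, and Pex16, which recruits PEX3, by 0.07 ± 0.08 (SE, adjusted p = 0.577) and 0.01 ± 0.08 (SE, adjusted p = 0.941). Pex19 changed by -0.02 ± 0.09 (SE, adjusted p = 0.929) and -0.01 ± 0.09 (SE, adjusted p = 0.93). Its log2 level was lower in KO than in WT at day 4, at 8.99, 8.99 and 9.12 against 9.21, 9.42 and 9.37. The arrays of the genotypes did not overlap. KO minus WT was -0.30 ± 0.09 (SE, adjusted p = 0.0333) at day 4, a call that failed on omitting WT day 4 arrays 2 or 3 or KO day 4 arrays 1 or 2 (adjusted p up to 0.114, and 0.0135 to 0.114 over all alternatives), and -0.30 ± 0.09 (SE, adjusted p = 0.0786) at day 0, which passed without WT day 0 array 2 or WT day 4 array 1.

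PEX11 proteins bend and elongate the peroxisomal membrane ahead of fission, and Pex11a is the member of the family that peroxisome proliferators induce in liver. Log2 levels of Pex11a were 5.30, 5.42 and 5.38 on the WT day 0 arrays, 6.0, 5.51 and 5.79 at WT day 4, 5.64, 5.56 and 5.77 at KO day 0 and 6.24, 5.95 and 6.28 at KO day 4. Day 4 lay above day 0 in each genotype, with a wide spread at WT day 4, and the genotypes overlapped at day 4. Pex11a changed by 0.40 ± 0.12 (SE, adjusted p = 0.0319) in WT, a call that failed on omitting WT day 0 arrays 1, 2 or 3 or WT day 4 arrays 1 or 3 (adjusted p up to 0.11, and 0.00578 to 0.11 over all alternatives), and by 0.50 ± 0.12 (SE, adjusted p = 0.00698) in KO. KO minus WT at day 4 was 0.39 ± 0.12 (SE, adjusted p = 0.0398), a call that failed on omitting WT day 0 arrays 1, 2 or 3, WT day 4 arrays 2 or 3, KO day 0 array 1 or KO day 4 arrays 1 or 3 (up to 0.155, and 0.00709 to 0.155 over all alternatives). Pex11g, another member of the family, changed by 0.08 ± 0.08 (SE, adjusted p = 0.583) in WT and 0.05 ± 0.08 (SE, adjusted p = 0.726) in KO.

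Of the 9 genes of beta-oxidation and its branched substrates, Hsd17b4, Scp2 and Ech1 rose and Amacr fell in both genotypes, and Acaa1a rose in WT alone. HSD17B4 is the D-bifunctional protein, which hydrates and dehydrogenates very-long-chain and branched acyl chains. Hsd17b4 had log2 levels of 7.60, 7.61 and 7.68 on the WT day 0 arrays, 7.99, 7.97 and 8.05 at WT day 4, 7.82, 7.95 and 7.85 at KO day 0 and 8.08, 8.26 and 8.15 at KO day 4. The days did not overlap in either genotype. Its change was 0.37 ± 0.07 (SE, adjusted p = 0.00249) in WT and 0.29 ± 0.07 (SE, adjusted p = 0.00941) in KO on the log2 scale. Between genotypes, KO minus WT was 0.24 ± 0.07 (SE, adjusted p = 0.0838) at day 0 and 0.16 ± 0.07 (SE, adjusted p = 0.152) at day 4, neither of which passed. Ech1, an isomerase for fatty acids with double bonds that works in peroxisomes and mitochondria, changed by 0.43 ± 0.11 (SE, adjusted p = 0.0113) and 0.48 ± 0.11 (SE, adjusted p = 0.00431), and no genotype difference passed.

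SCP2 is a thiolase for branched chains and, as a shorter product of the same gene, a lipid carrier. Log2 levels of Scp2 were 7.46, 7.22 and 7.50 on the WT day 0 arrays, 7.68, 7.72 and 7.69 at WT day 4, 6.69, 6.78 and 6.86 at KO day 0 and 7.48, 7.46 and 7.24 at KO day 4. The KO day 0 arrays were the lowest of all, the KO day 4 arrays lay among those of WT day 0, and the WT day 4 arrays were the highest. At day 0 KO minus WT was -0.62 ± 0.09 (SE, adjusted p = 0.00162), equal to a level 1.54-fold lower in KO, and this call held in all 20 alternatives. The change to day 4 was 0.62 ± 0.09 (SE, adjusted p = 0.000275) in KO and 0.30 ± 0.09 (SE, adjusted p = 0.0367) in WT, the latter failing on omission of WT day 0 arrays 1 or 2, WT day 4 arrays 1, 2 or 3 or KO day 0 array 2 (adjusted p up to 0.163, and 0.0264 to 0.163 over all alternatives). At day 4 KO minus WT was -0.30 ± 0.09 (SE, adjusted p = 0.041), a call that failed on omitting WT day 0 array 1, WT day 4 arrays 1, 2 or 3, KO day 0 arrays 1, 2 or 3 or KO day 4 arrays 2 or 3 (up to 0.149, and 0.0289 to 0.149 over all alternatives).

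AMACR is the racemase that turns branched acyl chains into the form that beta-oxidation accepts. Amacr had log2 levels of 7.81, 7.95 and 7.72 on the WT day 0 arrays, 7.11, 7.50 and 7.17 at WT day 4, 7.68, 7.84 and 7.87 at KO day 0 and 6.98, 7.32 and 7.06 at KO day 4. In each genotype every day 4 array lay under every day 0 array, and the second array of each day 4 group was the highest of its group. The log2 change was -0.56 ± 0.12 (SE, adjusted p = 0.00387) in WT and -0.67 ± 0.12 (SE, adjusted p = 0.00086) in KO. For Amacr, KO minus WT was -0.03 ± 0.12 (SE, adjusted p = 0.95) at day 0 and -0.14 ± 0.12 (SE, adjusted p = 0.46) at day 4. Acaa1a, a thiolase of straight chains, changed by 0.33 ± 0.11 (SE, adjusted p = 0.0487) in WT, a call that failed on omitting WT day 0 arrays 1 or 3, WT day 4 array 1, KO day 0 arrays 1, 2 or 3 or KO day 4 arrays 1, 2 or 3 (adjusted p up to 0.196, and 0.0323 to 0.196 over all alternatives), and by -0.02 ± 0.11 (SE, adjusted p = 0.9) in KO. Without WT day 4 array 1 the WT change of Acaa1a was 0.20. Acaa1b, its near-identical copy, changed by -0.09 ± 0.11 (SE, adjusted p = 0.644) and -0.05 ± 0.11 (SE, adjusted p = 0.799). Whether the probe sets separate the copies was not tested. The branched-chain oxidases Acox2 and Acox3 and the bifunctional enzyme Ehhadh passed in no comparison. Their log2 changes were 0.02, 0.06 and -0.07 in WT, and 0.14, -0.02 and 0.07 in KO.

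Alpha-oxidation removes 1 carbon from phytanic acid, with PHYH adding a hydroxyl group and HACL1 cleaving the product. Log2 levels of Hacl1 were 5.85, 5.82 and 5.93 on the WT day 0 arrays, 6.62, 6.55 and 6.49 at WT day 4, 5.92, 6.09 and 5.97 at KO day 0 and 7.11, 6.97 and 7.13 at KO day 4. The day 4 arrays lay well above the day 0 arrays in each genotype, and at day 4 the KO arrays lay above the WT arrays. Hacl1 changed by 0.68 ± 0.08 (SE, adjusted p = 4.31e-05) in WT (1.61-fold) and by 1.08 ± 0.08 (SE, adjusted p = 1.21e-06) in KO (2.11-fold). KO minus WT was 0.13 ± 0.08 (SE, adjusted p = 0.483) at day 0 and 0.52 ± 0.08 (SE, adjusted p = 0.000783) at day 4, and both day calls and the day 4 genotype call held in all 20 alternatives.

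Phyh passed in neither day comparison but was higher in KO. Its log2 levels were 6.43, 6.46 and 6.56 on the WT day 0 arrays, 6.69, 6.37 and 6.23 at WT day 4, 6.95, 6.99 and 7.09 at KO day 0 and 6.78, 6.96 and 6.77 at KO day 4. The KO arrays lay above the WT arrays on both days. KO minus WT was 0.53 ± 0.11 (SE, adjusted p = 0.0121) at day 0, a call that failed on omitting WT day 0 arrays 1 or 2 or KO day 0 array 3 (adjusted p up to 0.0622, and 0.000445 to 0.0921 over all alternatives), and 0.41 ± 0.11 (SE, adjusted p = 0.02) at day 4, a call that failed on omitting WT day 4 arrays 2 or 3 or KO day 4 array 2 (up to 0.0885, and 0.000934 to 0.346 over all alternatives). A second Phyh probe set, with a mean log2 level of 3.99 against 6.69, gave KO minus WT of 0.13 and -0.11, and both calls were lost with the average of the probe sets, at 0.33 and 0.15. The change to day 4 was -0.06 ± 0.11 (SE, adjusted p = 0.796) in WT and -0.18 ± 0.11 (SE, adjusted p = 0.264) in KO.

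ABCD2 and ABCD3 bring very-long-chain and branched acyl chains into the peroxisome. Abcd2 had log2 levels of 4.20, 4.50 and 4.66 on the WT day 0 arrays, 5.75, 5.18 and 4.69 at WT day 4, 4.90, 4.93 and 5.02 at KO day 0 and 5.75, 6.04 and 5.84 at KO day 4. Day 4 lay above day 0 in each genotype, but the WT day 4 arrays were spread widely, and the highest of them and the lowest KO day 4 array both read 5.75. The change was 0.75 ± 0.21 (SE, adjusted p = 0.0172) in WT and 0.92 ± 0.21 (SE, adjusted p = 0.00391) in KO on the log2 scale. The WT call failed on omitting WT day 0 array 1 (adjusted p up to 0.0798, and 0.00125 to 0.0798 over all alternatives), and without WT day 4 array 1 the WT change was 0.48. KO minus WT was 0.67 ± 0.21 (SE, adjusted p = 0.0359) at day 4, a call that failed on omitting WT day 0 array 2, WT day 4 arrays 2 or 3 or KO day 4 arrays 1, 2 or 3 (up to 0.136, and 0.00085 to 0.136 over all alternatives), and 0.50 ± 0.21 (SE, adjusted p = 0.232) at day 0, which passed without WT day 4 array 1. Without WT day 4 array 3 the day 4 difference of Abcd2 was 0.41, and without WT day 4 array 1 it was 0.94. Abcd3 changed by 0.18 ± 0.07 (SE, adjusted p = 0.0947) and 0.14 ± 0.07 (SE, adjusted p = 0.169), and Abcd4, a family member that acts in lysosomes in cobalamin transport, by -0.12 ± 0.10 (SE, adjusted p = 0.473) and -0.04 ± 0.10 (SE, adjusted p = 0.82).

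Ether lipid synthesis starts with GNPAT, which acylates dihydroxyacetone phosphate, and AGPS, which exchanges the acyl for an alkyl chain. Log2 levels of Agps were 7.89, 8.02 and 8.02 on the WT day 0 arrays, 7.29, 7.55 and 7.41 at WT day 4, 8.03, 8.04 and 8.01 at KO day 0 and 7.45, 7.55 and 7.55 at KO day 4. Day 4 lay under day 0 on every array of each genotype, and the genotypes overlapped on both days. The log2 change of Agps was -0.56 ± 0.08 (SE, adjusted p = 0.000248) in WT and -0.51 ± 0.08 (SE, adjusted p = 0.000359) in KO, which held in all 20 alternatives. Gnpat, the partner enzyme, changed by 0.26 ± 0.09 (SE, adjusted p = 0.0489) in WT and by 0.01 ± 0.09 (SE, adjusted p = 0.933) in KO. The WT call failed on omitting WT day 0 arrays 1, 2 or 3, WT day 4 arrays 2 or 3, KO day 0 arrays 1, 2 or 3 or KO day 4 array 3 (adjusted p up to 0.19, and 0.0195 to 0.19 over all alternatives). The enzymes of consecutive steps thus had WT log2 changes of opposite sign.

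CROT and CRAT transfer shortened acyl groups to carnitine for export from the peroxisome, CRAT also in mitochondria. Crot had log2 levels of 7.71, 7.86 and 7.74 on the WT day 0 arrays, 7.99, 8.05 and 8.04 at WT day 4, 7.92, 7.84 and 7.90 at KO day 0 and 8.38, 8.24 and 8.26 at KO day 4. Day 4 lay above day 0 in each genotype, and the KO arrays were the highest at day 4. Its log2 change was 0.26 ± 0.07 (SE, adjusted p = 0.0218) in WT, a call that failed on omitting WT day 0 arrays 1 or 3 or WT day 4 arrays 2 or 3 (adjusted p up to 0.0914, and 0.0121 to 0.0914 over all alternatives), and 0.41 ± 0.07 (SE, adjusted p = 0.000932) in KO. KO minus WT was 0.27 ± 0.07 (SE, adjusted p = 0.0215) at day 4, a call that failed on omitting WT day 4 array 3 or KO day 4 array 1 (up to 0.0776, and 0.00912 to 0.0994 over all alternatives). Crat moved the other way in KO. Its log2 levels were 8.74, 8.68 and 8.84 on the WT day 0 arrays, 8.70, 8.94 and 8.65 at WT day 4, 8.55, 8.42 and 8.62 at KO day 0 and 8.06, 8.24 and 8.11 at KO day 4. The KO day 4 arrays were the lowest of all, and the WT groups overlapped. The log2 change was -0.39 ± 0.10 (SE, adjusted p = 0.00708) in KO and 0.01 ± 0.10 (SE, adjusted p = 0.96) in WT. For Crat, KO minus WT was -0.22 ± 0.10 (SE, adjusted p = 0.257) at day 0 and -0.62 ± 0.10 (SE, adjusted p = 0.000811) at day 4, the last holding in all 20 alternatives. A second Crat probe set, with a mean log2 level of 5.18, changed by -0.55 in KO and also by -0.23 in WT. It gave KO minus WT of -0.05 at day 0 and -0.37 at day 4.

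PXMP4 is a peroxisomal membrane protein. Pxmp4 had log2 levels of 7.52, 7.57 and 7.62 on the WT day 0 arrays, 8.30, 8.43 and 8.42 at WT day 4, 7.44, 7.47 and 7.51 at KO day 0 and 8.32, 8.21 and 8.20 at KO day 4. The days stood far apart in each genotype, and the genotypes overlapped at day 4. The log2 change was 0.81 ± 0.07 (SE, adjusted p = 5.76e-06) in WT and 0.77 ± 0.07 (SE, adjusted p = 7.3e-06) in KO, and no genotype difference passed (-0.10 at day 0 and -0.14 at day 4). Pxmp2, a channel of the same membrane, changed by 0.26 ± 0.14 (SE, adjusted p = 0.237) and 0.01 ± 0.14 (SE, adjusted p = 0.965). Catalase (Cat) changed by 0.30 ± 0.09 (SE, adjusted p = 0.0206) in WT, a call that failed on omitting WT day 0 arrays 1, 2 or 3 or WT day 4 arrays 2 or 3 (adjusted p up to 0.064, and 0.00459 to 0.064 over all alternatives), and by 0.14 ± 0.09 (SE, adjusted p = 0.263) in KO, which passed without KO day 4 array 2.

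**Figure D3:**
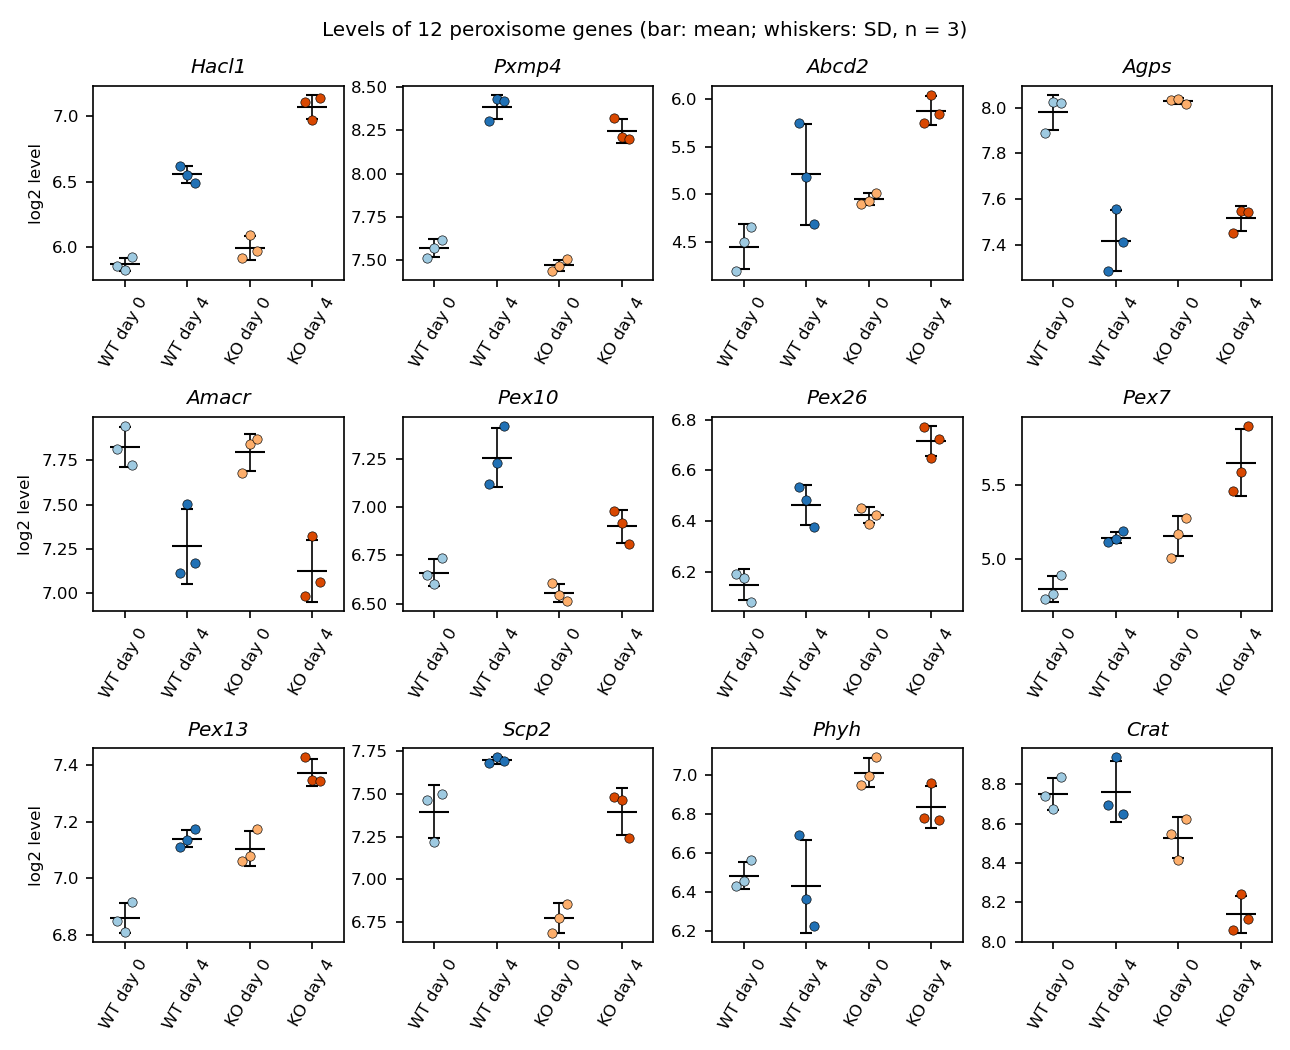
Log2 levels of 12 peroxisome genes by group, 1 point per array, with the mean (bar) and SD (whiskers, n = 3); each panel has its own axis. Hacl1 and Pxmp4 separate the days in both genotypes, Agps and Amacr fall at day 4, Scp2 is lowest at KO day 0, and Crat is lowest at KO day 4.

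Before reprogramming, 3 of the 34 genes (8.82%) passed between KO and WT cells. Of all genes 5.60% passed, and 7.22% of those at or above the 25th percentile. In limma's test 11 of the 34 had an unadjusted p under 0.05, against 3694 of all 22180 genes. Phyh and Pex26 were higher in KO (2 of 34, where 2.48% of all genes were higher) and Scp2 was lower (1 of 34, where 3.12% were lower), with a median log2 difference of 0.02 over the 34. By day 4, 8 were higher in KO (8.34% of all genes) and 4 were lower (12.4%), with a median of -0.04. Of genes at or above the 25th percentile 10.0% were higher and 16.2% lower at day 4. Higher were Hacl1, Pex7, Phyh, Crot, Pex26, Pex13, Abcd2 and Pex11a, and lower were Crat, Pex10, Pex19 and Scp2. Of the peroxins 4 were higher and 2 lower in KO at day 4, and of the other 21 genes 4 were higher and 2 lower. Values not past the threshold at day 4 that passed with 1 array left out were those of Acaa1b (without KO day 4 array 2, adjusted p = 0.0401, and 0.0401 to 0.959 over all alternatives), Abcd4 (without KO day 4 array 3, 0.0212, and 0.0212 to 0.294 over all alternatives) and Gnpat (without WT day 4 array 1, 0.036, and 0.036 to 0.287 over all alternatives). In all 20 alternatives the calls of Scp2 at day 0 and of Pex7, Hacl1 and Crat at day 4 were kept. The count of higher genes at day 0 was 0 without WT day 0 array 1 or 2 or KO day 0 array 3. It was 1 without WT day 0 array 3, WT day 4 array 2, KO day 0 array 1 or 2 or KO day 4 array 1, and it was 4 without WT day 4 array 1. That of lower genes was 2 without WT day 0 array 2 and without WT day 4 array 1. At day 4 the count of higher genes was 2 without WT day 4 array 3, 3 without WT day 4 array 2 and without KO day 4 array 1, and 5 without KO day 4 array 3, and that of lower genes was 1 without WT day 4 array 3 and 2 without array 2 of either genotype's day 4 group.

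Markers of other cell types differed between the genotypes. Of 12 macrophage markers 10 were lower in KO at day 0 and 9 at day 4, and none was higher. The log2 of their summed linear levels was 10.57 to 10.64 at WT day 0, 10.61 to 11.42 at WT day 4, 9.08 to 9.16 at KO day 0 and 9.24 to 9.31 at KO day 4. Of 11 adipocyte markers 2 were lower in KO at day 0, and 1 was higher and 3 were lower at day 4, with log2 summed levels of 9.88 to 9.95, 10.16 to 10.35, 9.46 to 9.56 and 10.13 to 10.50 in the same order of groups. Of 7 epithelial markers 2 were lower in KO at day 0 and 3 at day 4. Of 8 endothelial markers 1 was lower at day 0 and none passed at day 4. Of 10 hepatocyte markers, with Alb, Fgb and Serpina1a under the 25th percentile, none passed on either day. The part of these markers in the genotype differences of Scp2, Phyh, Hacl1, Crat and the other peroxisome genes was not tested.

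**Figure D4:**
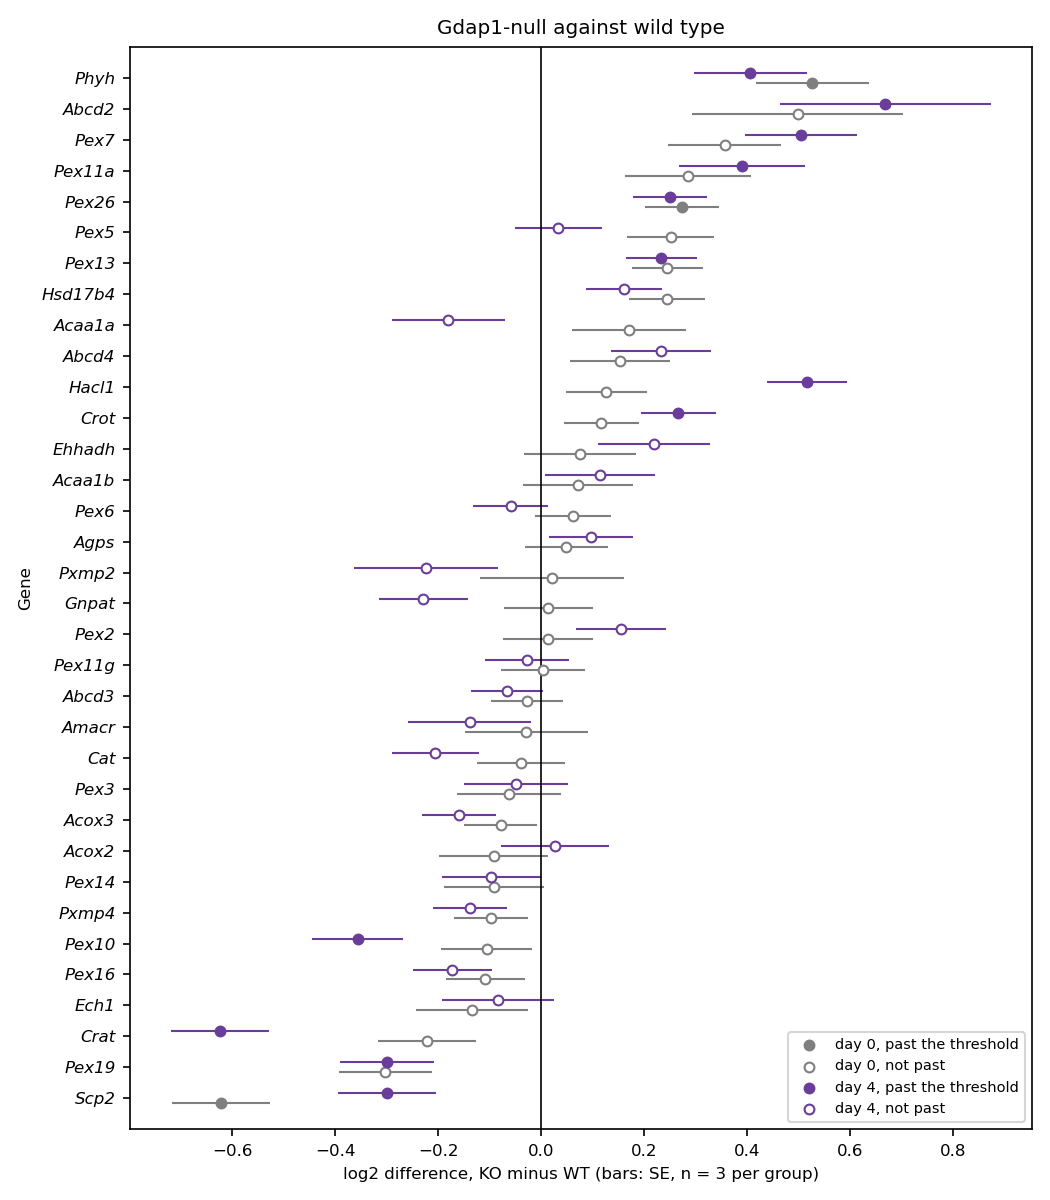
Log2 difference of KO minus WT for each gene at day 0 (grey) and day 4 (purple), with SE bars (n = 3 arrays per group); filled points passed the adjusted p threshold of 0.05. At day 0 the 3 filled points are Scp2 (-0.62), Phyh (0.53) and Pex26 (0.27); at day 4, 12 are filled, from Crat (-0.62) to Abcd2 (0.67).

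Whether the change to day 4 differed between KO and WT was tested directly, as the difference of the changes. In limma's test none of the 34 genes passed, where 3.95% of all genes did. An unadjusted p under 0.05 in that test was found for 4235 of all 22180 genes and for 4 of the 34. These were Hacl1 (0.39 ± 0.11 SE, adjusted p = 0.0712), Crat (-0.40 ± 0.13 SE, adjusted p = 0.12), Scp2 (0.32 ± 0.13 SE, adjusted p = 0.209) and Acaa1a (-0.35 ± 0.16 SE, adjusted p = 0.239), each as KO change minus WT change on the log2 scale. Hacl1 passed in 4 of the alternatives: without WT day 4 array 1 or KO day 4 array 2, with quantile normalization and with array weights; its value without WT day 4 array 1 was 0.42 (adjusted p = 0.0381). So the calls made in 1 genotype alone (Pex2, Crat, Acaa1a, Gnpat and Cat) are not shown to differ between the genotypes. The genotype comparisons share arrays with the day comparisons, and their values are given side by side only.

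Other genes of the peroxisome, from lists that hold none of the 34 and were likewise assembled with results known, gave mixed counts. A list labelled other peroxins and division also holds further peroxisomal proteins, and 10 of its 13 genes were measured. In WT 2 of them rose and 0 fell. The 2 were Mavs (0.70) and Pnpla8 (0.33 on the log2 scale), neither of them a peroxin or a division factor. In KO 3 rose and 2 fell. The KO changes included Mavs, the antiviral adaptor of mitochondria and peroxisomes (0.76 ± 0.09 SE, adjusted p = 4.22e-05), Lonp2, the peroxisomal protease (0.50 ± 0.09 SE, adjusted p = 0.000815), Pnpla8, a phospholipase (0.35 ± 0.09 SE, adjusted p = 0.00673), and Fis1, a fission factor that peroxisomes and mitochondria share (-0.46 ± 0.09 SE, adjusted p = 0.002). Mff, the other fall, is a receptor of the fission machinery (-0.25 ± 0.08 SE, adjusted p = 0.0301; named after its value was seen). None of the 10 passed between genotypes at day 0. At day 4 Lonp2 was higher in KO (0.36 ± 0.09 SE, adjusted p = 0.0134), and Tysnd1, which processes imported enzymes, and Fis1 were lower (-0.64 ± 0.09 SE, adjusted p = 0.000426, and -0.32 ± 0.09 SE, adjusted p = 0.0263).

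Of 42 other peroxisomal enzymes and transporters 35 were measured, of which 7 rose and 5 fell in WT and 8 rose and 5 fell in KO. Pipox, which oxidises pipecolic acid and sarcosine, changed by 2.12 ± 0.15 (SE, adjusted p = 1.29e-06) in WT and 1.77 ± 0.15 (SE, adjusted p = 3.9e-06) in KO. Gstk1, a glutathione transferase, changed by 1.29 ± 0.10 (SE, adjusted p = 2.05e-06) and 1.75 ± 0.10 (SE, adjusted p = 1.75e-07). Mvk, a kinase of the mevalonate pathway, fell by 1.02 ± 0.10 (SE, adjusted p = 1.25e-05) and 1.25 ± 0.10 (SE, adjusted p = 2.16e-06) in the same order. Acsl4, an acyl-CoA synthetase for arachidonic acid, changed by -0.99 ± 0.12 (SE, adjusted p = 4.69e-05) in WT, and Dhrs4, a carbonyl reductase, by -1.36 ± 0.14 (SE, adjusted p = 1.3e-05) in KO. In KO against WT, Zadh2 alone passed at day 0 (0.35 ± 0.08 SE, adjusted p = 0.0194). At day 4, 5 were higher and 2 lower, among them Acsl4 (0.95 ± 0.12 SE, adjusted p = 0.000213), Hsdl2 (0.64 ± 0.11 SE, adjusted p = 0.00183), Gstk1 (0.57 ± 0.10 SE, adjusted p = 0.00187) and Dhrs4 (-1.02 ± 0.14 SE, adjusted p = 0.000383). All 5 falls in WT were of Dhrs4, Mvk, Pmvk, Mpv17l and Acsl4, and those in KO of Slc27a2, Dhrs4, Mvk, Pmvk and Acsl4. The 5 genes higher in KO at day 4 were Nudt7, Gstk1, Ephx2, Acsl4 and Hsdl2, and those lower were Dhrs4 and Mvk; these are named in full after their values were seen. The difference of the changes passed for Ephx2 (0.72 ± 0.16 SE, adjusted p = 0.0296), a soluble epoxide hydrolase, and Dhrs4 (-0.83 ± 0.19 SE, adjusted p = 0.0334).

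The mitochondrial counterpart, with 20 of 21 genes of beta-oxidation and the carnitine shuttle measured, had 10 rises and 0 falls in WT and 9 rises and 1 fall in KO, with a median log2 change of 0.24 in each. In WT the rises with the smallest p were Cpt1a, which commits long chains to the mitochondrion (0.95 ± 0.07 SE, adjusted p = 1.05e-06), Acaa2 (1.18 ± 0.09 SE, adjusted p = 2e-06), Hadh (0.73 ± 0.09 SE, adjusted p = 8.8e-05) and Acadl (0.60 ± 0.08 SE, adjusted p = 0.000144). In KO they were Cpt1a (0.84 ± 0.07 SE, adjusted p = 1.96e-06), Etfa (1.21 ± 0.11 SE, adjusted p = 6.93e-06), Cpt2 (0.87 ± 0.09 SE, adjusted p = 1.71e-05) and Acadl (0.77 ± 0.08 SE, adjusted p = 1.8e-05). KO exceeded WT at day 0 for Cpt1a (0.50 ± 0.07 SE, adjusted p = 0.000628) and Slc25a20, the carnitine carrier (0.32 ± 0.08 SE, adjusted p = 0.0242). At day 4, 5 were higher and 3 lower, with Etfdh and Etfa, which pass electrons to the respiratory chain, at 0.65 ± 0.09 (SE, adjusted p = 0.000599) and 0.71 ± 0.11 (SE, adjusted p = 0.000919), Cpt1a at 0.38 ± 0.07 (SE, adjusted p = 0.00166) and Eci1, an isomerase, at -0.70 ± 0.09 (SE, adjusted p = 0.000359). Named in full after their values were seen, the genes higher at day 4 were Acadl, Acadm, Etfa, Etfdh and Cpt1a, those lower were Acaa2, Eci1 and Etfb, and the fall in KO was of Echs1. For Etfdh, Etfa and Eci1 the difference of the changes passed as well (0.65, 0.70 and -0.61).

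**Figure D5:**
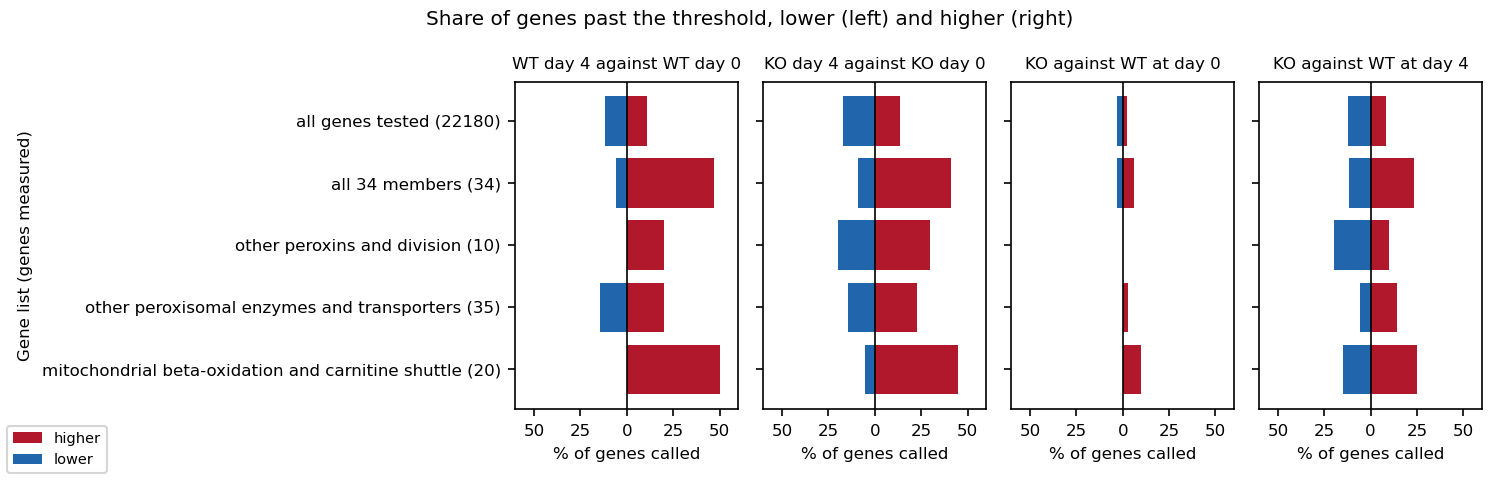
Share of genes past the adjusted p threshold of 0.05 in each of 4 comparisons, lower to the left and higher to the right, for all genes tested, the 34 peroxisome genes, other peroxisome genes and mitochondrial beta-oxidation genes (number measured in parentheses). In the day comparisons, rises outnumber falls for the 34 genes (16 to 2 in WT and 14 to 3 in KO) and for the mitochondrial list (10 to 0 and 9 to 1). The margins are smaller for the other peroxisomal enzymes and transporters (7 to 5 and 8 to 5) and the other peroxins and division (2 to 0 and 3 to 2). Of all genes tested 11.1% rose and 11.7% fell in WT, and 13.8% and 16.9% in KO.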

How the data were processed

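Levels were read from the series matrix of 12 arrays. Per the submitters' processing notes the authors used Affymetrix Expression Console, and the deposited values are log2 probe-set levels. No background correction, normalization, summary method or genome build is given in the sources used here. No depth exists for arrays, and their number limits the precision. Of 41345 probe sets, 23521 carried 1 gene symbol, which gave 22180 genes at the probe set of highest mean.

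One limma 3.58.1 model in R 4.3.3 with 4 group means was fitted to all 12 arrays, with 8 residual and 4.56 prior degrees of freedom. Its moderated tests were two-sided, with Benjamini-Hochberg adjustment over all 22180 genes and a threshold of 0.05, and changes carry the model's SE. The fit was tested on simulated data, with 50 genes changed at each size in each of the day and genotype comparisons. It recovered 8 to 30% of 1.25-fold changes, 58 to 68% of 1.5-fold and 84 to 98% of 2-fold changes. The simulated runs called 134 to 150 genes each, where the data gave 1242 to 6828, so the adjustment was stricter in them. They also used 1 SD per gene for all groups, while the median SD was 0.09 at day 0 and 0.12 to 0.13 at day 4. The recovered shares are therefore not the power of the comparisons made here. A gene that did not pass may still have changed by a small amount.

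The genes, lists and tests were chosen with earlier results of these data known. Array values are given for the 8 genes of smallest p in each day comparison, up to 6 in each genotype comparison and 2 in the difference of changes, and up to 4 genes of each other list are named in a comparison. Further genes with array values, such as Pex19 at day 4, Pex11a and Abcd2, were chosen after their values were seen. Alternatives were a filter at the 25th percentile, quantile normalization, array-median centring, averaged probe sets, another prior, array weights, fits to the groups compared, a replicate block and the omission of each array. Motifs were searched in RefSeq promoters of GRCm38.p6.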

Additional observations from a re-analysis of the deposited data

How the results depend on the processing

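Of the 50 calls among the 34 genes, 29 held in all alternatives and 21 were lost in at least 1, 17 further values passed in at least 1, and 0 reversed. KO day changes were the most stable, with 16 of 17 calls kept, against 9 of 18 in WT, 1 of 3 for KO against WT at day 0 and 3 of 12 at day 4. With array medians centred, 8 genes rose in WT and 2 were lower in KO at day 4. With only the groups compared in the fit, 9 rose in WT, 6 were higher in KO at day 0, and 2 were higher and 1 lower at day 4. Array weights gave 7 higher and 2 lower in KO at day 0 and 1 in the difference of changes, and quantile normalization 2 lower at day 4 and 1 in the difference. The trended and robust prior gave 1 higher and 2 lower at day 0, and averaged probe sets 1 higher. Leaving out 1 array gave 7 to 15 rises and 2 falls in WT, 13 to 14 rises and 3 falls in KO, 0 to 4 higher and 1 to 2 lower at day 0, 2 to 8 higher and 1 to 4 lower at day 4, and 0 to 1 higher and 0 lower in the difference. Over all genes too, calls in KO against WT at day 0 moved from 1242 to 2562 with array weights and 2453 with only the groups compared, calls at day 4 from 4596 to 1923 with the latter, and calls in the difference from 877 to 1852 with array weights. With 1 array left out, calls over all genes ran from 3977 to 5165 in the WT day comparison, where all 12 arrays gave 5072. For KO against WT at day 4 they ran from 2946 to 5929. The causes were not tested. For the other lists, 1924 of 2178 counts stayed within 1.5 times.

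With the replicate block, 12 genes rose and 2 fell in WT, 14 and 3 in KO, 2 were higher and 1 lower in KO at day 0, 7 and 3 at day 4, and 0 in the difference. The labels do not say what a number marks. Deviations of same-numbered arrays correlated at -0.06 to 0.18, over 0.1 in 2 of 12 pairs, and 4 of 12 were best with their own number, so the numbers were not taken as pairing. Both pairs over 0.1 were of WT day 4 with KO day 4, at 0.18 for array 2 and 0.12 for array 3. Each was best with its own number. Whether same-numbered day 4 arrays were handled together was not tested.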

Other observations

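Of 10 measured nuclear receptors and coactivators of the PPAR list, 3 passed in WT and 2 in KO, where 22.9% and 30.8% of all genes did. Rxrb rose (0.27 ± 0.08 SE, adjusted p = 0.0325) and Pparg, the receptor of adipocytes, and Pprc1, a coactivator, fell in WT (-0.49 ± 0.11 SE, adjusted p = 0.00426, and -0.46 ± 0.10 SE, adjusted p = 0.00476), and Pprc1 and Rxrg fell in KO (-0.77 ± 0.10 SE, adjusted p = 8.71e-05, and -0.56 ± 0.12 SE, adjusted p = 0.00301). KO against WT gave Pparg lower at day 0 (-0.62 ± 0.11 SE, adjusted p = 0.0033), and at day 4 Ppard higher (0.59 ± 0.10 SE, adjusted p = 0.00186) and Pprc1 and Rxrb lower (-0.46 ± 0.10 SE, adjusted p = 0.00667, and -0.28 ± 0.08 SE, adjusted p = 0.0324). The difference of the changes passed in limma's test for 0 of the 10, with 3 at an unadjusted p under 0.05, against 4235 of all 22180 genes.

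Among 19 of 23 other genes that PPAR receptors are known to induce, some of which are also in the mitochondrial list, 6 rose and 1 fell in WT, and 7 rose and 1 fell in KO. Lpl, lipoprotein lipase, changed by 1.25 ± 0.13 (SE, adjusted p = 1.94e-05) in WT and 1.10 ± 0.13 (SE, adjusted p = 4.19e-05) in KO, Acot2, a mitochondrial thioesterase, by -0.83 ± 0.12 (SE, adjusted p = 0.000234) and -0.86 ± 0.12 (SE, adjusted p = 0.000133), and Pdk4, which restrains glucose oxidation, by 1.75 ± 0.22 (SE, adjusted p = 5.45e-05) in KO. At day 0, 4 were higher in KO (Cpt1a, Slc25a20, Angptl4 and Plin2) and 1 lower, with Angptl4, a secreted inhibitor of lipoprotein lipase, at 2.17 ± 0.37 (SE, adjusted p = 0.00371) and Acot2 at -0.67 ± 0.12 (SE, adjusted p = 0.00455). At day 4, 6 were higher and 1 lower, with Pdk4 at 1.70 ± 0.22 (SE, adjusted p = 0.000272) and Fabp4, a fatty acid carrier that is also an adipocyte marker, at 1.85 ± 0.33 (SE, adjusted p = 0.00221). The difference of the changes passed for Pdk4 (1.83 ± 0.30 SE, adjusted p = 0.00703) and Fabp4 (1.87 ± 0.47 SE, adjusted p = 0.0462). In the day comparisons 2 of 11 adipocyte markers rose and 2 fell in WT, and 3 rose and 1 fell in KO, and the part of such cells in these values was not tested.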
